A study of Homo sapiens with 36 samples.

Results

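Bile acids are made from cholesterol in hepatocytes, and this report describes 9 genes of that route and of its feedback control in HepG2 cells, an established human hepatoma line. The members were taken by gene symbol from a table of 18932 genes, and all 9 have a row in it. They are CYP7A1, CYP8B1, CYP27A1 and CYP7B1, which hydroxylate cholesterol and its intermediates, BAAT, which conjugates bile acids to glycine or taurine, NR1H4, which encodes the bile acid receptor FXR, NR0B2, which encodes the repressor SHP, the hormone FGF19, and ABCB11, the pump that exports bile salts into bile. In the liver CYP7A1 opens the classical route and CYP27A1 the alternative route. FXR is activated by bile acids and induces NR0B2, FGF19 and ABCB11, and SHP and FGF19 in turn lower CYP7A1 and CYP8B1.

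Cells had been given DHA (docosahexaenoic acid, 50 µM), PRO (propionate, 70 µM), PCA (protocatechuic acid, 20 µM), DHA+PRO, DHA+PCA or vehicle (Ctrl, matching amounts of BSA, ethanol and DMSO) in serum-free medium. Each treatment ran for 6 h or 24 h with 3 independent cultures, which gave 36 RNA-seq libraries in 12 groups. Each library held the pooled RNA of 3 wells. HepG2 is a single tumour-derived line.

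Total counts ran from 4659744 to 42326734 per library with a median of 7034006.5. The deepest library, DHA+PRO at 24 h replicate 2, held 6.22 times the median of the other 24 h libraries. No pair of libraries among 630 agreed within sampling noise. All 9 hepatocyte markers were above 1 CPM (counts scaled to a common library size with TMM factors) on average, and their summed level was 53539 to 64773 CPM at 6 h and 62233 to 71475 CPM at 24 h. Of 7 markers of immune, stellate, endothelial and bile duct cells, 1 was above 1 CPM, COL1A1 with 1.26 CPM, and their summed level was 0.319 to 7.03 CPM at 6 h and 0.434 to 17.4 CPM at 24 h.

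The members spanned a wide range of levels. In RPKM, which divides CPM by the counted length, CYP27A1 led with a mean of 126 ± 12.0 (SD, n = 36), followed by NR0B2 with 90.3 ± 35.1 and NR1H4 with 25.6 ± 10.7. BAAT (2.74 ± 1.17) and CYP8B1 (2.72 ± 1.18) were next and could not be separated. CYP7A1 had 0.934 ± 0.517 RPKM, FGF19 0.105 ± 0.112 and CYP7B1 0.0664 ± 0.0747, and ABCB11 had no read. The enzyme of the alternative route was therefore far above the opening enzyme of the classical route in every sample, with at least 109 RPKM for CYP27A1 against at most 1.84 RPKM for CYP7A1. At 24 h CYP27A1 (130 ± 12.9, n = 18) and NR0B2 (119 ± 26.8) lay within the spread of NR0B2, while at 6 h they were apart (123 ± 10.2 against 61.8 ± 10.3). Neighbouring FGF19 and CYP7B1 did not differ beyond their spread.

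**Figure D1:**
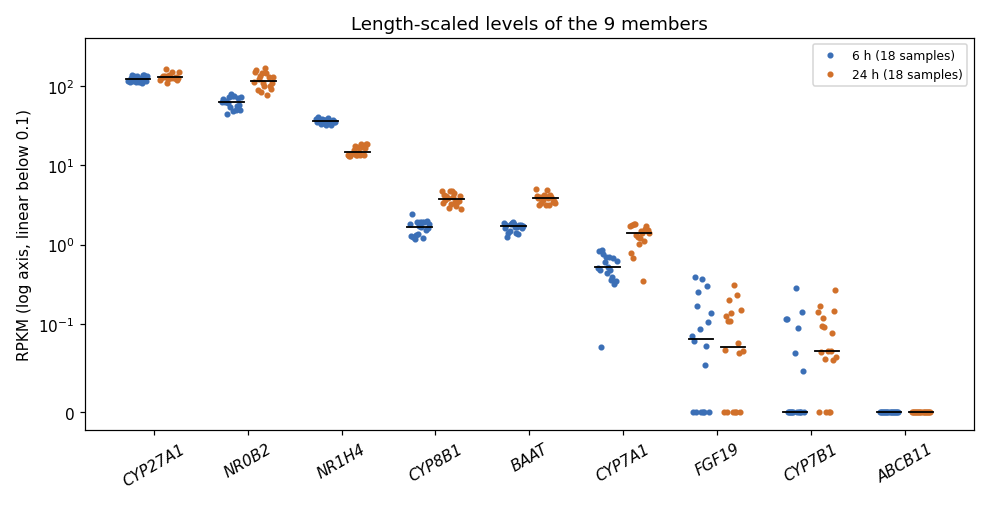
RPKM of the 9 members in all samples, on a log axis that is linear below 0.1, with 18 points for 6 h (blue) and 18 for 24 h (orange) and a bar at each median. The means fall from 126 RPKM for CYP27A1 to 0.0664 for CYP7B1, and all 36 ABCB11 points lie at 0.

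The RefSeq promoter table (GRCh38.p14) holds starts of 4 of the 9 members, ABCB11, BAAT (2 starts), CYP27A1 and NR1H4. The 250 bases before the start are shown for a member whose RNA was lower at 24 h (NR1H4), one whose RNA was higher (BAAT, the upstream start) and one without a read (ABCB11). Each was found once in GRCh37 (hg19), overlaps 0 exons of the GENCODE annotation, and is given 5′ to 3′ on the gene's strand. Capitals mark the letters GGTCA, the core that many nuclear receptors bind, or their reverse complement TGACC.
NR1H4, hg19 chr12:100896888-100897137, plus strand: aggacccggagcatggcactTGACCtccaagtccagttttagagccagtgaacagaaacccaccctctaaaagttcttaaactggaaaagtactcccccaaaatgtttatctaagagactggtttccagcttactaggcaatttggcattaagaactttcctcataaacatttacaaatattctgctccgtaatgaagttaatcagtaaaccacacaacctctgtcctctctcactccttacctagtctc
BAAT, hg19 chr9:104146156-104146405, minus strand: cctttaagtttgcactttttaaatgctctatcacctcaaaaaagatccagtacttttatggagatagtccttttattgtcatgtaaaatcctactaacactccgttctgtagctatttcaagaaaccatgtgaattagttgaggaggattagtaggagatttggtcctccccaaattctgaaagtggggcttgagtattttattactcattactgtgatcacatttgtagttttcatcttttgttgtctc
ABCB11, hg19 chr2:169887835-169888084, minus strand: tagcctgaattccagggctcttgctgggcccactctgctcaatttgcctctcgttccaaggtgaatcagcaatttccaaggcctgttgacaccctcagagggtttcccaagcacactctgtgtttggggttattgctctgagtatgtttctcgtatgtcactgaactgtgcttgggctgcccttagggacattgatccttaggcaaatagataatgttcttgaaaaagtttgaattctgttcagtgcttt
The NR1H4 window holds GGTCA on the minus strand 230 to 226 bases before its start, and the windows of BAAT and ABCB11 shown here hold neither form. The window of the other BAAT start (hg19 chr9:104145847-104146096), not printed because it overlaps annotated exons, holds GGTCA at -216 to -212 and TGACC at -41 to -37 from that start. GC content was 42% for NR1H4, 35.2% for BAAT and 46.4% for ABCB11. GGTCA is common, since 32.6% of 35116 promoter windows of this length hold it on either strand, and this search was chosen after the data were seen. Longer sites were searched by exact letters on both strands. They were the FXR inverted repeat (GGTCA, 1 base, then its reverse complement), LRH-1 (CAAGGTCA or CAAGGCCA, of which the former contains GGTCA), HNF4 (CAAAGTCCA) and SREBP (TCACNCCAC). In this order 0.00854%, 2.49%, 0.325% and 0.883% of all windows held them, and no window of these 4 members did. Variants of these letters were not searched, so a miss does not show that a window lacks such a site. For the exact FXR repeat, held by 3 of 35116 windows, a miss was near certain beforehand. The counted NR1H4 row (NM_001206979, hg19 chr12:100867551-100957645) begins 29587 bases upstream of the start shown, so the window lies in an intron of the counted gene. The BAAT start shown lies 1132 bases inside its row, and that of ABCB11 1 base outside.

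Between 6 h and 24 h, 4 members rose and 1 fell over the 6 treatments together. NR1H4 fell by 1.24 on the log2 scale, to 0.423 of its 6 h level, while CYP7A1 (2.52-fold), BAAT (2.33-fold), CYP8B1 (2.29-fold) and NR0B2 (1.92-fold) rose. The fit tested 6 of the 9 members, as CYP7B1, FGF19 and ABCB11 were under its count filter, and these 5 of 6 passed. Most genes did so too, since 61% of 12046 genes passed in either direction, 30.1% higher and 31% lower. The members' changes were nevertheless among the larger ones, as 2.26% of genes had a change as large as that of CYP7A1 and 5.28% one as large as that of NR0B2. In bulk RNA, less RNA per cell and fewer cells of a type cannot be told apart. The cells at 24 h had also been longer in culture and in serum-free medium, which cannot be told apart from the time of treatment. The libraries carry numbers of a first series (18xx) and a second (19xx, all of replicate 3 and 1 other library). The first holds 1 library of DHA+PRO at 6 h, and the second was fitted with replicate 3 only, 1 library a group. All 5 members kept their direction in each alone. On the log2 scale NR1H4 was at -1.205 and -1.36, NR0B2 at 0.98 and 0.89, BAAT at 1.22 and 1.17, CYP8B1 at 1.32 and 1.04 and CYP7A1 at 1.33 and 1.39. In the first series the 6 h and 24 h libraries of a treatment and number carry the same index in the column headers. Libraries that share an index cannot be separated within the same pool, so in this series time and pool cannot be told apart. The headers of the second series give no index, and how its libraries were pooled is not stated.

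NR1H4, the receptor, had 86.7, 79.8 and 91.0 CPM in the Ctrl samples at 6 h and 30.5, 29.99 and 29.9 CPM at 24 h. Over all treatments it ran from 73.6 to 91.0 CPM at 6 h (median 83.1) and from 29.9 to 42.6 CPM at 24 h (median 33.1). Every 24 h sample was below every 6 h sample, and all 18 pairs of the same treatment and replicate number fell. Samples of the times did not overlap for 6.02% of genes. The log2 change was -1.24 (SE 0.047, adjusted p = 2.16e-21, edgeR quasi-likelihood test), and -1.51 (SE 0.12) within Ctrl alone.

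BAAT, the conjugating enzyme, had 6.56, 5.70 and 6.21 CPM in Ctrl at 6 h and 17.3, 14.2 and 13.3 CPM at 24 h. Over all treatments the range was 4.34 to 6.70 CPM (median 5.88) at 6 h and 11.0 to 17.3 CPM (median 13.3) at 24 h. These ranges did not overlap either. The log2 change over all treatments was 1.22 (SE 0.069, edgeR adjusted p = 9.78e-17).

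CYP8B1, the enzyme that commits intermediates to cholic acid, had 7.11, 5.06 and 9.48 CPM in Ctrl at 6 h and 18.6, 13.2 and 16.4 CPM at 24 h. Over all treatments it ran from 4.68 to 9.48 CPM (median 6.62) at 6 h and from 11.1 to 18.6 CPM (median 14.6) at 24 h. Again no 24 h sample reached down to a 6 h sample. The log2 change was 1.197 (SE 0.084, edgeR adjusted p = 2.85e-14).

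CYP7A1, the opening and rate-limiting enzyme of the classical route, was low. Its raw counts in Ctrl were 16, 26 and 8 at 6 h and 29, 15 and 38 at 24 h, and over all samples the counts were 2 to 26 at 6 h and 6 to 134 at 24 h. On the CPM scale the median was 1.48 at 6 h and 4.01 at 24 h, and the ranges of 0.212 to 2.45 and 1.00 to 5.29 CPM overlapped. It was higher at 24 h in 16 of 18 same-numbered pairs, and the log2 change was 1.34 (SE 0.19, edgeR adjusted p = 3.09e-07). Within Ctrl alone, where 26% of all genes passed, the change of 1.18 (SE 0.45, adjusted p = 0.0493) was lost in 27 of the 36 fits that left out 1 library, with adjusted p from 0.0207 to 0.192.

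NR0B2, the FXR target that encodes SHP, rose while the receptor's own mRNA fell. In Ctrl it had 78.9, 85.2 and 78.1 CPM at 6 h and 141.3, 190.3 and 200.2 CPM at 24 h. Over all treatments it ran from 56.4 to 99.8 CPM (median 78.5) at 6 h and from 97.4 to 209.9 CPM (median 147.7) at 24 h. The ranges touched, with 17 of 18 samples at 24 h above all 6 h samples, and all 18 same-numbered pairs rose. The log2 change was 0.94 (SE 0.090, edgeR adjusted p = 5.99e-11). In Ctrl alone, 4 members did not overlap between the times (NR1H4, BAAT, CYP8B1 and NR0B2), as did 40.7% of all genes.

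CYP27A1, the mitochondrial sterol hydroxylase of the alternative route, stayed between 249.0 and 372.2 CPM in all samples. Its Ctrl values were 262.9, 251.9 and 284.0 CPM at 6 h and 271.3, 284.6 and 304.1 CPM at 24 h. The times overlapped, and the log2 difference of 0.082 (95% interval -0.010 to 0.17) did not pass (edgeR adjusted p = 0.117). With the library number series as a factor it passed at a similar size, 0.091 (adjusted p = 0.0105).

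**Figure D2:**
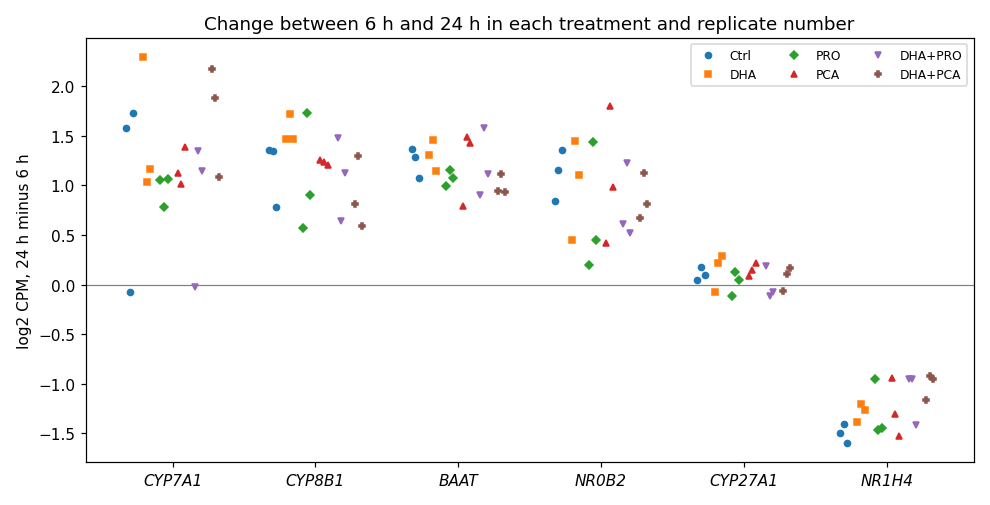
Difference in log2 CPM between 24 h and 6 h for each of the 6 tested members, with 1 point for each of 3 replicate numbers in each of 6 treatments, marked by shape and colour. All 18 points lie above 0 for CYP8B1, BAAT and NR0B2 and below 0 for NR1H4, and CYP27A1 points lie between -0.12 and 0.29.

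The other 3 members are described by their reads. CYP7B1, the hydroxylase that follows CYP27A1 in the alternative route, had 51 reads in all 36 libraries. At 6 h these were 3, 3 and 0 in Ctrl, 0 in each DHA sample, 0, 0 and 1 with PRO, 6, 0 and 2 with PCA, 0 in each DHA+PRO sample, and 3, 1 and 0 with DHA+PCA. At 24 h they were 2, 0 and 3 in Ctrl, 1, 2 and 2 with DHA, 2, 1 and 0 with PRO, 1, 0 and 0 with PCA, 1, 9 and 1 with DHA+PRO, and 2, 4 and 1 with DHA+PCA. The 3 groups with DHA had 4 reads against 15 without it at 6 h, and 23 against 9 at 24 h, or 14 against 9 without the deepest library. The sums themselves were not tested. An edgeR fit without the count filter averaged DHA against Ctrl, DHA+PRO against PRO and DHA+PCA against PCA. The log2 difference was -2.21 (SE 1.18, unadjusted p = 0.0696) at 6 h and 1.00 (SE 0.76, unadjusted p = 0.191) at 24 h. The 24 h effect exceeded the 6 h effect by 3.21 (SE 1.33, unadjusted p = 0.0189). None of these CYP7B1 values passed after adjustment, and they rest on few reads. Between single groups of 3 samples the lowest exact two-sided permutation p of CYP7B1 was 0.30 over 14 comparisons, but 3 against 3 cannot go below 0.1. Without the count filter its log2 difference between the times was 1.39 (SE 0.64, edgeR adjusted p = 0.0714).

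FGF19, the hormone that in the body comes mainly from the ileum and signals to the liver, had 66 reads, 36 at 6 h and 30 at 24 h. At 6 h the counts were 2, 0 and 1 in Ctrl, 8, 0 and 2 with DHA, 5, 2 and 0 with PRO, 7, 0 and 0 with PCA, 1, 1 and 3 with DHA+PRO, and 2, 0 and 2 with DHA+PCA. At 24 h they were 0, 1 and 2 in Ctrl, 0, 2 and 3 with DHA, 2, 2 and 0 with PRO, 4, 0 and 0 with PCA, 3, 7 and 1 with DHA+PRO, and 0, 2 and 1 with DHA+PCA. Groups overlapped throughout, and the lowest exact permutation p was 0.40 over 15 comparisons, where 3 against 3 cannot go below 0.1. ABCB11 had 0 reads in all 36 libraries. With 304697692 counts in total, 3 counts, the limit that a count of 0 allows, stand for 0.00985 CPM over the series and 0.644 CPM in the shallowest library, for counting error only. The export pump that FXR induces in hepatocytes was thus not detectable at this depth.

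No member passed the test in any of the 16 treatment comparisons, fitted without a replicate block. This covered each treatment against Ctrl, the pooled DHA effect (the mean of DHA against Ctrl, DHA+PRO against PRO and DHA+PCA against PCA) and each combination against DHA, at both times. Among 96 tests of 6 members, which share libraries, 7 had an unadjusted p under 0.05 and the lowest adjusted p was 0.317 (edgeR). Of all genes tested (11872 at 6 h, 11893 at 24 h), 86 to 1175 had an unadjusted p under 0.05 in a comparison. DESeq2 also called 0 members in each. With the replicate number as a block, NR0B2 passed at 24 h for DHA+PRO against Ctrl and for the pooled DHA effect, as given below. Without the block few genes passed at all. At 6 h the share was 0.0168% for each of DHA, DHA+PRO and DHA+PCA against Ctrl, 0.202% for the pooled DHA effect and 0% for the other 4 comparisons. At 24 h it was 0.193% for DHA, 0.395% for DHA+PRO, 0.286% for DHA+PCA and 1.23% for the pooled DHA effect, and 0% for PRO, PCA and both combinations against DHA. In the comparisons with 0% in edgeR, 86 to 716 genes had an unadjusted p under 0.05, and DESeq2 called 1 gene for PRO and 11 for DHA+PRO against DHA at 24 h and 0 in the others.

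**Figure D3:**
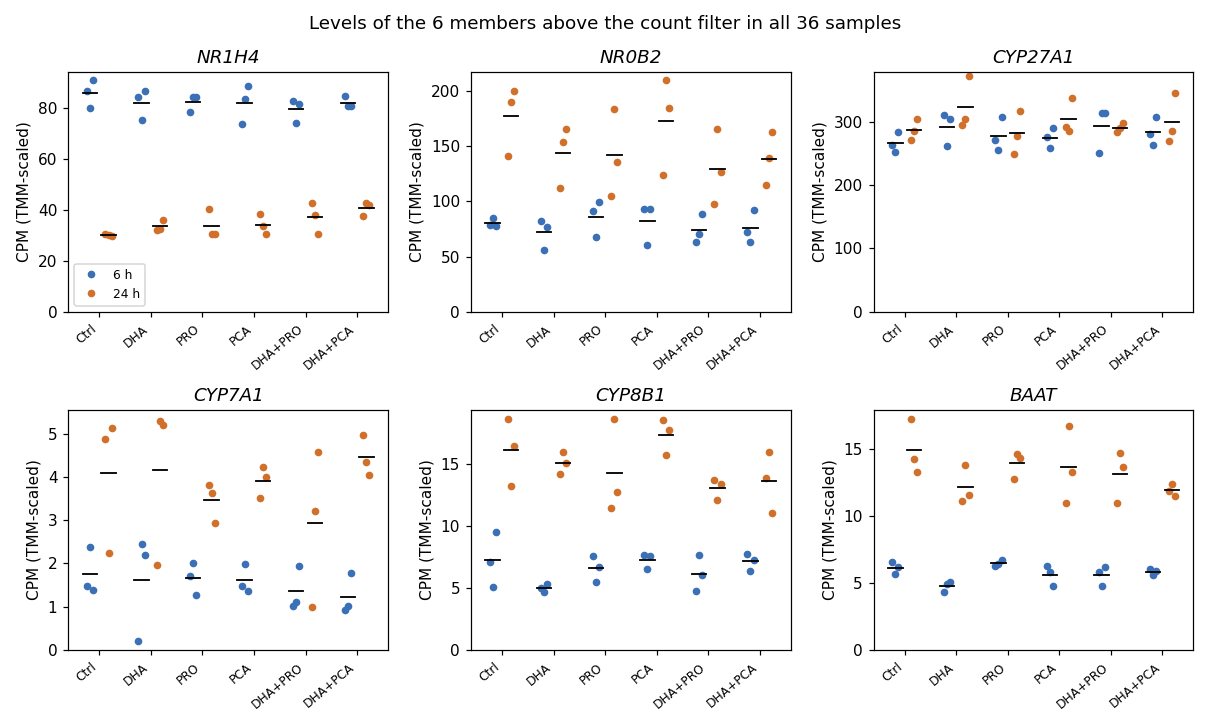
CPM (TMM-scaled, linear axis from 0) of the 6 tested members by treatment at 6 h (blue) and 24 h (orange), 3 points a group with a bar at the mean. NR1H4 lies between 73.6 and 91.0 CPM at 6 h and between 29.9 and 42.6 CPM at 24 h in every treatment.

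At 24 h NR1H4 was lowest in Ctrl and highest in DHA+PCA. Ctrl had 30.5, 29.99 and 29.9 CPM, a spread far tighter than in the other groups (SD 0.348 against 2.09 to 6.18). With 182 to 222 reads a sample, counting error alone is larger than this SD, so the tight spread cannot be read as a trait of Ctrl. The values were 32.01, 32.5 and 35.9 CPM with DHA, 40.4, 30.4 and 30.6 CPM with PRO and 38.3, 33.7 and 30.7 CPM with PCA. With DHA+PRO they were 42.6, 38.1 and 30.4 CPM, and with DHA+PCA 37.6, 42.6 and 41.7 CPM. DHA, PCA and DHA+PCA did not overlap Ctrl, as 10.7%, 10.2% and 12.7% of all genes did not in those comparisons. These gaps rest on the tight Ctrl values, and the lowest PCA sample (30.66 CPM) was barely above the highest Ctrl sample (30.54 CPM). In the order of the means only the step from Ctrl (30.1) to DHA (33.5) was larger than the SD of both neighbours. The log2 difference from Ctrl was 0.43 (SE 0.14, unadjusted p = 0.0040, edgeR adjusted p = 0.317) for DHA+PCA, 0.30 (SE 0.13, adjusted p = 0.590) for DHA+PRO and 0.15 (95% interval -0.13 to 0.43) for DHA. DHA+PCA was also above DHA without overlap, where 7.90% of genes did not overlap, with a log2 difference of 0.28 (95% interval 0.0022 to 0.56, edgeR adjusted p = 0.999). With the replicate number as a block this NR1H4 difference was 0.28 (SE 0.12, unadjusted p = 0.0321, edgeR adjusted p = 0.994). DHA+PCA against Ctrl with the block gave 0.43 (SE 0.12, edgeR adjusted p = 0.104), where 1 of 3 same-numbered pairs correlated over 0.1. Neither passed. The pooled DHA effect on NR1H4 was 0.18 at 24 h (SE 0.077, adjusted p = 0.413) and -0.045 at 6 h (SE 0.058). The difference between these effects was 0.21 (SE 0.094, unadjusted p = 0.0290, adjusted p = 1.00), in a comparison where 0% of 12046 genes passed in edgeR, 368 had an unadjusted p under 0.05 and DESeq2 called 6 genes.

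**Figure D4:**
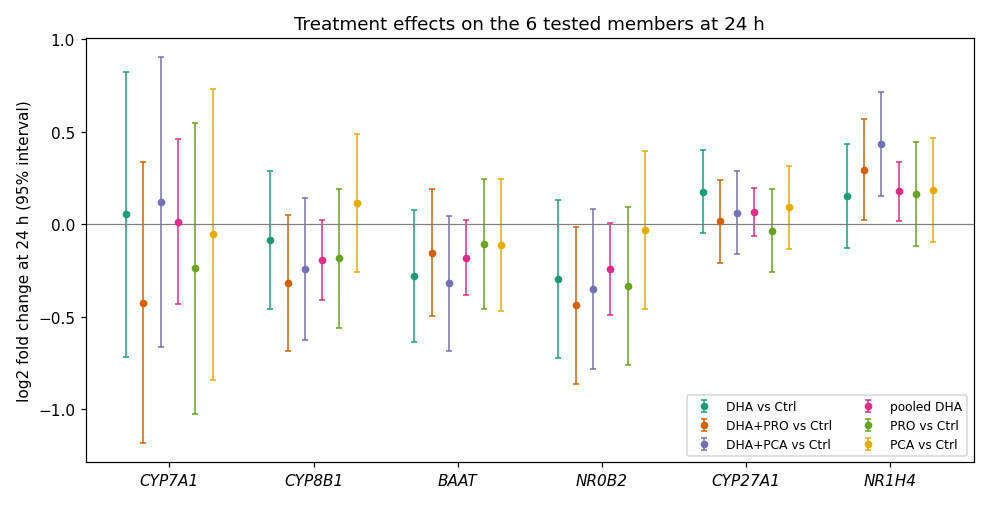
Log2 fold change at 24 h of the 6 tested members with its 95% interval, for each treatment against Ctrl and for the pooled DHA effect. The intervals of NR1H4 for DHA+PCA, DHA+PRO and the pooled DHA effect lie above 0 before adjustment, and no value passed after it.

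NR0B2 was highest in Ctrl at 24 h, with a mean of 177 ± 31.6 CPM (SD, n = 3), and lowest in DHA+PRO with 130 ± 34.1 CPM. Its values were 141.3, 190.3 and 200.2 CPM in Ctrl, 112.5, 154.2 and 166.1 CPM with DHA, and 97.4, 165.3 and 126.8 CPM with DHA+PRO. PRO had 105.4, 183.8 and 136.1 CPM, PCA 124.4, 209.9 and 184.7 CPM, and DHA+PCA 114.6, 139.1 and 163.0 CPM. All groups overlapped, no step between neighbouring means exceeded their SD, and replicate 1 was the lowest sample in 6 of 6 groups. The log2 difference from Ctrl was -0.44 (SE 0.21, edgeR adjusted p = 0.606) with DHA+PRO, -0.35 (SE 0.21, adjusted p = 0.767) with DHA+PCA and -0.30 (SE 0.21, adjusted p = 0.946) with DHA. These values moved with single libraries, as leaving out 1 library gave -0.66 (without DHA+PRO replicate 2) to -0.27 (without DHA+PRO replicate 1), -0.49 (without Ctrl replicate 1) to -0.23 (without DHA+PCA replicate 1) and -0.43 (without Ctrl replicate 1) to -0.15 (without DHA replicate 1), respectively. Most of these fits left out a replicate 1 library, the lowest of its group, from 1 side, so they also carry the difference between replicate numbers. For DHA+PRO against Ctrl at 24 h the same-numbered samples deviated together, and with the replicate number as a block NR0B2 fell by 0.46 on the log2 scale (SE 0.10, edgeR adjusted p = 0.0199). It was lower than the same-numbered Ctrl sample in 3 of 3 pairs, by 0.54, 0.20 and 0.66 on the log2 scale of CPM. Under that block NR0B2 was the 1 member that passed, beside 1.14% of all genes (135 against 47 without it). With the block the difference was -0.30 (SE 0.10, unadjusted p = 0.0072, edgeR adjusted p = 0.308) for DHA, which did not pass. For DHA+PCA it was -0.345 (SE 0.10, unadjusted p = 0.0026, edgeR adjusted p = 0.125), which did not pass either. Both were lower than Ctrl in 3 of 3 same-numbered pairs, of which 2 for DHA and 1 for DHA+PCA correlated over 0.1.

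**Figure D5:**
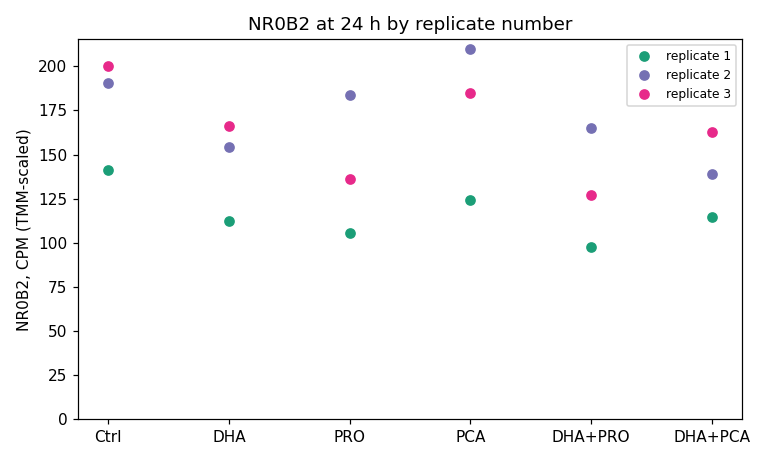
NR0B2 in CPM (TMM-scaled, axis from 0) in the 18 samples at 24 h by treatment, coloured by replicate number. Replicate 1 is the lowest point in each of the 6 treatments, between 97.4 and 141.3 CPM.

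No enzyme passed the test between treatments. At 6 h CYP8B1 had 4.97, 4.68 and 5.29 CPM with DHA against 7.11, 5.06 and 9.48 CPM in Ctrl, a log2 difference of -0.51 (SE 0.24, unadjusted p = 0.0446, edgeR adjusted p = 1.00). With DHA+PCA it had 7.77, 6.37 and 7.25 CPM, which did not overlap DHA, as also for BAAT and for 4.65% of genes, but the log2 difference of 0.52 (SE 0.24) missed the threshold too (edgeR adjusted p = 1.00). With the replicate number as a block this CYP8B1 difference was 0.52 (SE 0.23, edgeR unadjusted p = 0.0339) and did not pass either. BAAT at 6 h had 4.34, 4.91 and 5.11 CPM with DHA, below all Ctrl samples, where 8.84% of genes did not overlap, with a log2 difference of -0.37 (SE 0.19, edgeR adjusted p = 1.00). At 24 h BAAT had 11.9, 12.4 and 11.5 CPM with DHA+PCA, also below all Ctrl samples, where 12.7% of genes did not overlap. The log2 difference was -0.32 (SE 0.18, edgeR adjusted p = 0.740). CYP8B1 at 24 h had 13.7, 12.1 and 13.4 CPM with DHA+PRO, below all DHA samples, where 10.7% of genes did not overlap, with -0.23 (SE 0.18, adjusted p = 0.999).

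For the pooled DHA effect at 24 h, fitted without the replicate block, the 95% intervals of the log2 difference were -0.41 to 0.026 for CYP8B1, -0.38 to 0.025 for BAAT, -0.49 to 0.0074 for NR0B2 and -0.063 to 0.20 for CYP27A1. That of CYP7A1, from -0.43 to 0.46, was the widest. The NR0B2 value depended on the fit, since with the replicate block it was -0.24 (SE 0.059, edgeR adjusted p = 0.0217) and passed, beside 3.09% of all genes. The numbers were not taken to pair these samples, since 8 of 9 same-numbered pairs, not all, correlated over 0.1. Their median correlation was 0.230 (lowest 0.0681), against 0.181 (lowest 0.103) for DHA+PRO against Ctrl, where the numbers were taken to pair. The cutoff of 0.1 thus set which fit was reported first, and it does not show which cultures were paired. PRO and PCA alone gave log2 differences at 24 h between -0.33 (NR0B2 with PRO) and 0.18 (NR1H4 with PCA), and all of these 12 intervals included 0. For PRO the same-numbered samples deviated together, and with the block NR0B2 differed by -0.34 (SE 0.10, unadjusted p = 0.00256, edgeR adjusted p = 0.286), being lower in 3 of 3 pairs and not passing.

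Beyond the members, 46 further genes of bile acid synthesis, transport, nuclear receptors, FGF19 signalling and FXR targets were listed. Of 37 tested between the times, 11 rose, 12 fell and 14 did not pass, so 62.2% passed against 61% of all genes, and the median log2 change was 0.0053 against -0.0081 for all genes. Of the classical route, AKR1D1, the reductase that sets the ring shape of bile acids, rose by 1.54 on the log2 scale (SE 0.062), as CYP7A1 and CYP8B1 did, while AKR1C4, which acts after it, fell by 1.65 (SE 0.083). Of the transporters 3 rose and 4 fell among 9 tested. SLC51A, a subunit of the basolateral bile acid exporter and an FXR target, rose by 2.33 (SE 0.11), ABCB4, the phospholipid exporter, rose by 1.00 (SE 0.085), and SLCO1B3, an uptake carrier, fell by 2.23 (SE 0.19). The other subunit of that exporter, SLC51B, named after its value was seen, fell by 0.54 on the log2 scale (edgeR adjusted p = 0.00170). Of the further FXR targets 1 rose and 2 fell among 5 tested, and UGT2B4, which glucuronidates bile acids, fell by 1.49 (SE 0.12). KLB, the co-receptor through which FGF19 acts, fell by 0.77 (SE 0.037), and NR1I2, the xenobiotic receptor PXR, rose by 0.87 (SE 0.056). Of the 9 hepatocyte markers 6 rose and 1 fell over the same time, and their part in these changes was not tested.

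For the pooled DHA effect at 24 h, 2 of 37 listed genes rose, none fell and 35 did not pass, or 5.41% against 1.23% of all genes. They were AKR1C4 (log2 0.54, SE 0.13, edgeR adjusted p = 0.0416) and ABCC3, a basolateral exporter of bile acid conjugates (log2 0.30, SE 0.071, adjusted p = 0.0334), both named after their values were seen. In the 15 other treatment comparisons no listed gene passed.

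Genes with the most similar pattern were sought for the 3 members with the highest CPM, by Pearson's r over the 12 group means among 10626 genes. For NR1H4 these were HP (r = 0.993), FGB (0.992) and RCC1 (0.992). For NR0B2 they were TM7SF2 (0.993), TNS1 (0.992) and SLC26A6 (0.992). For CYP27A1 they were IER5L (0.937), ITPKA (0.900) and ARID5A (0.899). These are descriptions over 12 points that share libraries and, for NR1H4 and NR0B2, the step between the times.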

How the data were processed

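RNA-seq of 36 HepG2 samples in 12 groups of 3 was used. Per the labels and the methods, the authors pooled RNA of 3 wells per culture, prepared TruSeq libraries, and aligned reads to hg19 with STAR (version not given in the sources used here). The deposited values are raw counts per RefSeq gene, without normalization. Positions and counted lengths (an other unit) are deposited beside the counts, and the lengths were used for RPKM. Starts count from 0 there, and 1 was added. Groups came from the labels.

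Counts were tested in edgeR 4.0.16 (R 4.3.3) with filterByExpr, TMM and the quasi-likelihood F test, for the 18 samples of each time (11872 genes at 6 h, 11893 at 24 h) and for all 36 for differences between times (12046). The Benjamini-Hochberg adjustment covered the whole table of tested genes in each comparison. To pass, a gene needed an adjusted p no larger than 0.05 together with an average log2 CPM over 0. Members under the filter were compared by exact permutation of CPM. Log2 CPM used a prior count of 2. Scripts were tested on simulated counts. Promoters came from RefSeq.

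All 9 members are named, then the 8 listed non-members with the lowest adjusted p, and the 3 genes most alike in pattern to each of the 3 highest members. The members and lists were chosen with earlier results of these data known. Cultures are not stated to be paired by number. The column headers carry the same run of sample numbers for a replicate number in every group. With the replicate block the biological coefficient of variation, edgeR's measure of spread between cultures, was 0.0969 against 0.141 without it at 6 h. At 24 h it was 0.0825 against 0.105. Over same-numbered pairs within a time, the correlation of residuals was over 0.1 in 36 of 45 at 6 h and 32 of 45 at 24 h. Every pair passed 0.1 for DHA+PRO against Ctrl (0.103, 0.181 and 0.216) and PRO against Ctrl at 24 h, and for DHA+PCA against DHA at both times. Alternatives were DESeq2 1.42.0 size factors and Wald test, no count filter, no expression limit, replicate block, library number series, only the groups compared, the deep library thinned, and leaving out each sample. Fits of each library number series alone and a block within each time were chosen after seeing the data. Molecular identifiers are not described, so the limit given for a count of 0 covers counting error only, while the intervals of fold changes include the spread between cultures. Figures were drawn with matplotlib 3.10.9.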

Additional observations from a re-analysis of the deposited data

How the results depend on the processing

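Of 540 refits of the 19 counts of members passing, 538 stayed within 1.5 times the reported count. The replicate block gave the other 2, each 1 member (NR0B2) in place of 0, for DHA+PRO against Ctrl at 24 h and for the pooled DHA effect at 24 h. In the latter the log2 change of NR0B2 was -0.24 with edgeR adjusted p = 0.0217 (0.520 without the block). It was lower in 9 of 9 same-numbered pairs with and without DHA. There 367 genes passed against 146, and 8 of 9 of these pairs correlated over 0.1. The block also took CYP27A1 between the times past the threshold, at 0.080 (adjusted p = 0.0308) when shared by both times and 0.080 (0.0215) within each time. So did the library number series as a factor (0.091, edgeR adjusted p = 0.0105). The 19xx numbers of replicate 3 alone, 1 library a group, gave 0.14. The block changed no other call of a member. The pooled DHA effect on CYP7A1 at 24 h, 0.015, was -0.00067 with the deep library thinned, and leaving out 1 library gave -0.084 to 0.12, below 0 in 8 fits; the cause was not tested. Members passing within Ctrl between the times were 4 to 5 without 1 library, as CYP7A1 was lost. The 5 calls between the times over all treatments kept direction and threshold in 46 refits each, with NR1H4 from -1.36 to -1.205. DESeq2 size factors moved no median of all genes by over 0.1. Depth limits CYP7A1, CYP7B1, FGF19 and ABCB11. The thinned library was not run for the times within Ctrl alone.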

Other observations

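CYP27A1 was highest in replicate 3 in 6 of 6 groups at 24 h and in 5 of 6 groups at 6 h. Of the alternative hydroxylases beside CYP27A1 and CYP7B1, CH25H had 0 reads in all 36 libraries, CYP46A1 had 1 read at 6 h and 2 at 24 h, and CYP39A1 had 83 reads at 6 h and 53 at 24 h.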
